A study of Arabidopsis thaliana with 27 samples.

Results

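The measurements described here set the endosperm against the embryo axis of dormant (D) Arabidopsis seeds at 12 h after sowing (HAS). They come from 6 of the 27 arrays of the series: 3 arrays of the micropylar and chalazal endosperm (MCE) and 3 arrays of the combined radicle and hypocotyl (RAD), chosen by the title of each sample. All 21313 genes on the array were compared. The seeds were freshly harvested, belonged to the highly dormant accession Cvi, were sown in water without any other treatment, and carried no transgene or mutation. The other arrays hold both compartments at 3, 7 and 24 HAS, and non-dissected dry seeds, with 3 arrays in each of the 9 groups. A column kit was used for RNA from the RAD, whereas the MCE and the dry seeds went through a hot borate method with a clean-up step. The isolation method and the compartment therefore cannot be told apart in a difference at 1 time point. The plants were grown in 3 replicates, and what a replicate number shares between groups is not stated. The p-values therefore measure the spread between arrays within the 9 groups, estimated from all 27 arrays.

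The mature Arabidopsis endosperm is a single living cell layer around the embryo, under a dead seed coat, and it holds the seed shut until the radicle breaks through it. Germination depends on the balance of 2 hormones in both tissues: abscisic acid (ABA) keeps the seed dormant, while gibberellin (GA) promotes growth of the axis and weakening of the endosperm. The radicle and hypocotyl form the embryonic axis, whose cells elongate when germination starts. In D seeds that growth does not follow, although the seed takes up water and resumes transcription.

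Values are log2 RMA signals, so that a difference of 1 is a 2-fold change. A value above 5 was taken as expressed, and lower values lie near the noise of the chip. Medians were 4.83 to 4.87 on the MCE arrays, against 4.72 to 4.76 on the RAD arrays. Pearson correlations across genes were 0.989 to 0.996 between arrays of the same compartment and 0.933 to 0.941 between compartments. The mean was above 5 for 10387 genes in the MCE and for 10080 genes in the RAD, and for 9428 genes in both. Each array measures a dissected tissue as a whole, so that fewer cells of a type and less RNA per cell cannot be told apart.

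A gene was called different when limma gave an adjusted p under 0.05 over all genes and the means differed by at least 3-fold, after means below 4 had been raised to 4. By this rule 1083 genes differed (5.08% of those tested), of which 719 were higher in the MCE (3.37%) and 364 were higher in the RAD (1.71%). Without the fold rule 8880 genes passed (41.7%), with 4430 higher in the MCE and 4450 higher in the RAD on the deposited scale. All MCE arrays lay above all RAD arrays for 4960 genes (23.3%), and the reverse held for 5916 genes (27.8%). The called genes differed by a median of 4.13-fold when higher in the MCE and 3.85-fold when higher in the RAD, but 33 genes were 30-fold or more higher in the MCE and 0 genes were in the RAD. With means raised to 4, the largest difference was 8.36 (log2) on the MCE side and 4.49 on the RAD side. The median difference of all genes was -0.075, and with the array medians subtracted the calls were 613 and 436. Without the fold rule that scaling gave 3847 genes higher in the MCE and 6509 higher in the RAD, so that the even split depends on the scaling. Where the lower mean was under 4, the fold is given as at least the stated value, and where it lay between 4 and 5 it sets a signal against values near the noise, so that its size is uncertain.

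**Figure D1:**
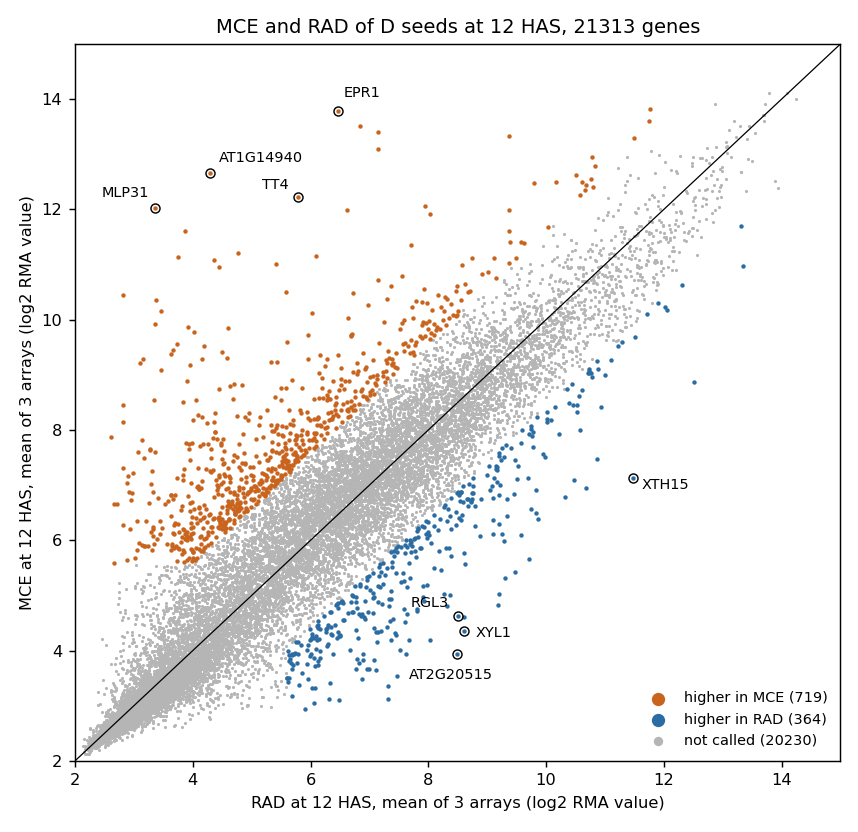
Mean log2 RMA value of each of the 21313 genes in the MCE (vertical axis) against the RAD (horizontal axis) at 12 HAS, 3 arrays each, with genes called higher in the MCE in orange, higher in the RAD in blue and others in grey. The orange points reach much farther from the line of equal values than the blue points do, and many of them lie at RAD means below 5.

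The compartments were first checked against marker genes. The extensin-like gene EPR1 (AT2G27380), a marker of the endosperm in germinating seeds, measured 13.89, 13.77 and 13.69 in the MCE and 6.41, 6.57 and 6.404 in the RAD, a 160.4-fold difference. MAN7, an endo-beta-mannanase of the endosperm wall, was called higher in the MCE, at 7.88 ± 0.43 in the MCE, against 5.53 ± 0.27 in the RAD (SD, n = 3 each), a 5.11-fold difference. EPR1 was not counted in the list of 9 endosperm markers because its symbol is shared with another gene. MAN7 was the 1 called member of that list (11.1%, against 3.37% of all genes). Of the others, CYP707A2 and FWA were higher in the MCE by adjusted p alone, and IKU2 and WRKY10, regulators of the developing endosperm that lay below 4 in both compartments, had all RAD arrays above all MCE arrays without passing the test. The median difference over the list was -0.14 (log2), toward the RAD, beside -0.075 over all genes, and its differences ranged down to -0.36. The mean level of the list ranged from 5.06 to 5.44 on the MCE arrays and from 4.94 to 4.97 on the RAD arrays. MAN7 weighs on this mean, as its difference of 2.35 (log2) was the largest of the list. Only 3 of the 9 members had a mean above 5 in either compartment.

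Among 28 markers of the root and embryo axis, 3 were called higher in the RAD (10.7%, against 1.71% of all genes) and 0 in the MCE. The epidermal gene PDF1 measured 4.68, 4.55 and 4.60 in the MCE and 8.58, 8.89 and 8.33 in the RAD. The embryo regulator BBM measured 3.67 ± 0.18 in the MCE, against 6.76 ± 0.22 in the RAD, and EIR1, the root auxin carrier also known as PIN2, measured 4.57 ± 0.28 in the MCE, against 7.40 ± 0.10 in the RAD (SD, n = 3 each). By adjusted p alone, 14 of the 28 were higher in the RAD (against 20.9% of all genes) and 3 were higher in the MCE. Of the axis regulators, PLT1 and PLT2 stayed below 5 in both compartments, and ATML1 and SCR did not pass, with 9.22 in the MCE against 9.26 in the RAD for ATML1 and 7.63 in the MCE against 7.76 in the RAD for SCR. The mean level of the list ranged from 4.52 to 4.62 on the MCE arrays and from 5.27 to 5.39 on the RAD arrays. Of 11 shoot apex and cotyledon markers, KNAT1 was called higher in the RAD (9.09%, against 1.71% of all genes). It measured 3.05 ± 0.11 in the MCE, against 6.05 ± 0.18 in the RAD, and STM, WUS and CLV3 lay below 4 in both. None of 12 seed coat markers was called (against 5.08% of all genes). Their mean level was between 3.53 and 3.61 on the MCE arrays and between 3.62 and 3.72 on the RAD arrays.

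The largest differences of all were on the MCE side, mostly in genes with values near the noise in the RAD. AT1G14940, annotated as a lipid transport protein of the polyketide cyclase superfamily, measured 12.42, 12.71 and 12.84 in the MCE and 4.53, 3.94 and 4.42 in the RAD. The difference was 8.36 ± 0.17 (SE), adjusted p = 1.82e-22. MLP31, a major latex protein-like gene, measured 11.53, 12.09 and 12.44 in the MCE and 3.18, 3.57 and 3.34 in the RAD, with a difference of 8.66 ± 0.22 (SE), and in both genes all MCE arrays were above 11 and all RAD arrays below 5. AT2G43590, of the chitinase family, measured 11.56, 11.75 and 11.52 in the MCE and 4.29, 3.69 and 3.62 in the RAD. CYP714A1, a cytochrome P450 also known as ELA1 that inactivates GA, measured 11.36, 11.03 and 11.001 in the MCE and 4.20, 3.48 and 3.56 in the RAD, a difference of at least 140.2-fold. AT3G25260, which encodes the transporter NPF4.1, measured 10.95 ± 0.11 in the MCE, against 4.44 ± 0.39 in the RAD (SD, n = 3 each), 91-fold higher in the MCE. The same gap was seen for AT5G66430, of a methyltransferase superfamily (10.44 in the MCE against 2.81 in the RAD), and AT5G44380, of the FAD-binding berberine family (10.36 in the MCE against 3.38 in the RAD). AT2G34315 and AT3G21380 were 105-fold and 87.6-fold higher in the MCE.

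The MLP list contained 13 measured members, of which 5 were called higher in the MCE (38.5%, against 3.37% of all genes) and 0 in the RAD. Besides AT1G14940 and MLP31 these were AT1G14950 (13.52 in the MCE against 6.84 in the RAD), AT1G14930 (11.01 in the MCE against 5.42 in the RAD) and AT1G14960 (9.17 in the MCE against 3.95 in the RAD). The other 8 members lay below 4 in both compartments, and none of them was called. The 4 loci AT1G14930, AT1G14940, AT1G14950 and AT1G14960 are consecutive among the genes on the array.

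The RAD side was led by AT2G20515, a gene of unknown function, at 3.74, 4.16 and 3.93 in the MCE and 8.52, 8.47 and 8.48 in the RAD (at least 22.5-fold). Several of the next genes act on the cell wall. XTH15, a xyloglucan endotransglucosylase, measured 7.297, 6.70 and 7.39 in the MCE and 11.49, 11.31 and 11.64 in the RAD, so that it was expressed in both compartments but 20.4-fold higher in the RAD (-4.35 ± 0.28 (SE), adjusted p = 1.94e-12). XYL1, an alpha-xylosidase that trims xyloglucan, measured 4.91, 3.70 and 4.43 in the MCE and 8.62, 8.69 and 8.51 in the RAD, and EXPA1, an alpha-expansin that loosens walls, measured 5.83, 3.48 and 3.29 in the MCE and 7.76, 8.34 and 7.99 in the RAD. The MCE value of EXPA1 was high on 1 array only, replicate 1, above all others of its group by more than 2. DGR2, a wall protein of the DUF642 family, was 13.3-fold higher in the RAD, at 6.95 ± 0.48 in the MCE, against 10.68 ± 0.11 in the RAD (SD, n = 3 each). The other leading genes were AT5G01210 (20.4-fold), AT2G25980 (17.9-fold), AT2G27830 (15.9-fold), the zinc finger homeodomain gene HB33 (16.5-fold), the purple acid phosphatase gene PAP10 (16.4-fold), PDF1 (15.8-fold) and the DELLA gene RGL3 (14.6-fold).

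**Figure D2:**
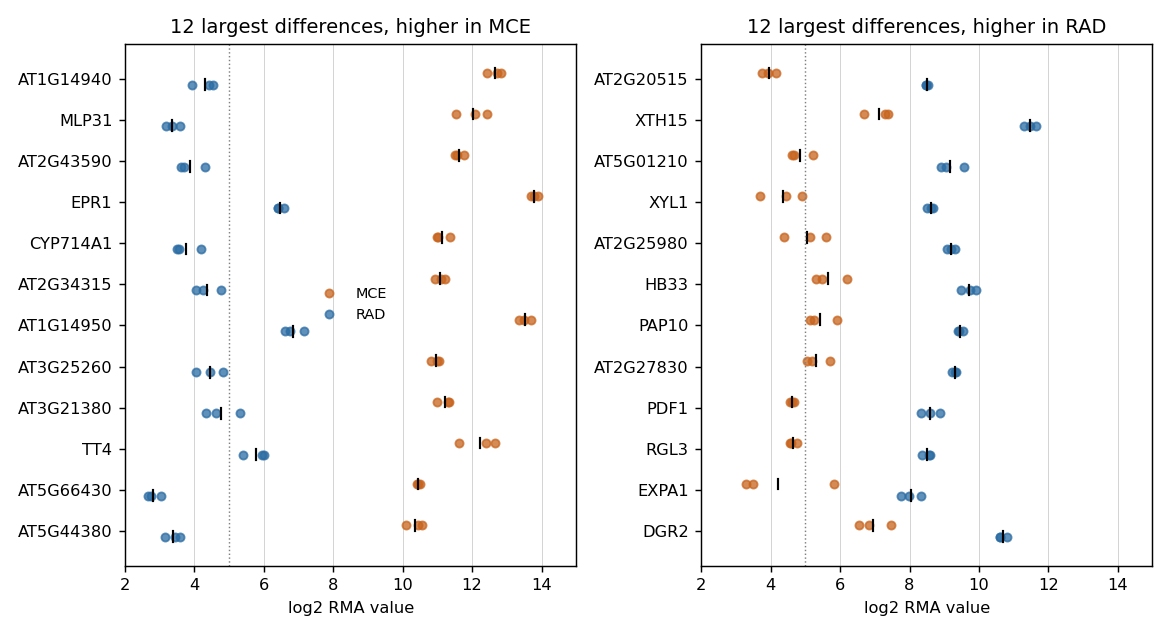
Log2 RMA values of each array at 12 HAS for the 12 genes with the largest differences higher in the MCE (left) and higher in the RAD (right); orange points are MCE arrays, blue points RAD arrays, black ticks the means, and the dotted line marks 5. The genes were chosen to have no overlap between the arrays of the compartments. The MCE arrays of EXPA1 are the most widely spread, with 1 array at 5.83.

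Flavonoid synthesis had the largest share of called members among the lists; flavonoids are pigments and antioxidants of the seed. Of 23 measured genes of the pathway, 11 were called higher in the MCE (47.8%, against 3.37% of all genes) and 0 in the RAD. TT4, chalcone synthase, which makes the first flavonoid, measured 11.63, 12.40 and 12.65 in the MCE and 6.003, 5.94 and 5.41 in the RAD, an 87-fold difference. FLS1, flavonol synthase, measured 8.82, 9.999 and 10.48 in the MCE and 4.002, 3.94 and 4.14 in the RAD (53.5-fold), and the 3 MCE arrays of both genes lay above every RAD array by more than 4. The enzymes between them were also higher in the MCE: TT5, chalcone isomerase (33.3-fold), its relative CHIL (at least 22.9-fold), F3H, flavanone 3-hydroxylase (5.05-fold), and TT7, flavonoid 3'-hydroxylase (17.2-fold). MYB12, an activator of the flavonol branch, measured 7.97 ± 0.60 in the MCE, against 4.38 ± 0.27 in the RAD (SD, n = 3 each). Upstream in phenylpropanoid synthesis, PAL1, PAL2, C4H and 4CL1 were 6.46-fold, 4.15-fold, 3.99-fold and 3.88-fold higher in the MCE.

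Genes of the branch to anthocyanins and proanthocyanidins were not called. DFR, its first enzyme, measured 3.19 in the MCE against 3.21 in the RAD, BAN measured 3.63 in the MCE against 3.70 in the RAD, and the regulators TT2, TT8, PAP1 and MYB90 all lay below 4 in both compartments. PAL4 was lower in the MCE, at 7.95 in the MCE against 8.46 in the RAD, by less than 3-fold (adjusted p = 0.0024). The other MYB activators of flavonols, MYB11 and MYB111, lay below 5 in both. In replicate 1 of the MCE, FLS1 and CHIL were lower than in replicates 2 and 3 by more than 1, and the mean over the pathway was 6.32 there, against 6.77 and 6.81.

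Of 13 genes of ABA biosynthesis, 2 were called higher in the MCE (15.4%, against 3.37% of all genes) and 0 in the RAD. ABA3, which provides the cofactor of the last enzyme, measured 6.66, 6.88 and 6.48 in the MCE and 4.25, 3.59 and 4.03 in the RAD (at least 6.38-fold). NCED2, a dioxygenase of the rate-limiting step, measured 6.07, 6.63 and 6.69 in the MCE and 4.26, 4.35 and 4.23 in the RAD (4.55-fold, 2.19 ± 0.20 (SE), adjusted p = 1.98e-09). With means below 5 raised to 5, only 1 of the 2 was called. By adjusted p alone 8 of the 13 were higher in the MCE (against 20.8% of all genes) and 0 in the RAD, among them NCED9, at 7.42 in the MCE against 5.90 in the RAD, and ABA1, at 9.91 in the MCE against 8.99 in the RAD. NCED5, the NCED gene with the highest level in both compartments, did not pass, at 8.46 in the MCE against 8.67 in the RAD, and NCED6 and NCED3 lay below 4. Of 4 ABA 8'-hydroxylase genes, which inactivate the hormone, none was called (against 5.08% of all genes). CYP707A2, the member with the highest level, measured 9.41 ± 0.053 in the MCE, against 8.84 ± 0.015 in the RAD (SD, n = 3 each), a difference of 0.58 ± 0.15 (SE), adjusted p = 0.0024.

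Of 6 ABA transporter genes, 2 were called, both higher in the MCE (33.3%, against 3.37% of all genes). By adjusted p alone 2 were higher in the MCE and 1 in the RAD (against 20.8% and 20.9% of all genes). The median difference was -0.21 (log2), toward the RAD, and 3 of the 6 had a mean above 5 in either compartment. ABCG25, which exports ABA from cells, measured 8.79, 8.77 and 8.75 in the MCE and 5.28, 5.73 and 5.72 in the RAD (9.15-fold). ABCG31, which also exports ABA from the endosperm, measured 8.59, 7.40 and 6.84 in the MCE and 3.15, 2.99 and 3.06 in the RAD (at least 12.202-fold), with a wide spread between the MCE arrays and RAD arrays below 4. In ABA signalling, HAB1, a clade A phosphatase, was 4.87-fold higher in the MCE, and 7 of the 9 phosphatases were higher there by adjusted p alone (against 20.8% of all genes). In 3 of the 6 fits that left out 1 array, 2 phosphatases were called in place of 1. SNRK2-8, a kinase, was 5.6-fold higher in the MCE, the 1 called of 10 kinases of its list (10%, against 3.37% of all genes). None of 10 receptor genes was called (against 5.08% of all genes in either direction).

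Among 10 genes for group A bZIP factors, ABI3 and ABI4, 3 were called higher in the MCE and 1 in the RAD. These were 30% and 10% of the list, against 3.37% and 1.71% of all genes. ABI3, a B3 regulator of seed maturation, measured 9.002, 8.54 and 8.71 in the MCE and 6.30, 6.26 and 6.03 in the RAD (5.88-fold), and ABI4, an AP2 factor, measured 4.97, 5.08 and 4.68 in the MCE and 7.80, 7.90 and 8.07 in the RAD (8.1-fold higher in the RAD). For both genes all arrays of 1 compartment were at least 2 above all arrays of the other. The bZIP factor genes ABF4 and ABI5 were 4.36-fold and 3.23-fold higher in the MCE, and ABI5 was well expressed in both, at 10.04 in the MCE against 8.35 in the RAD.

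**Figure D3:**
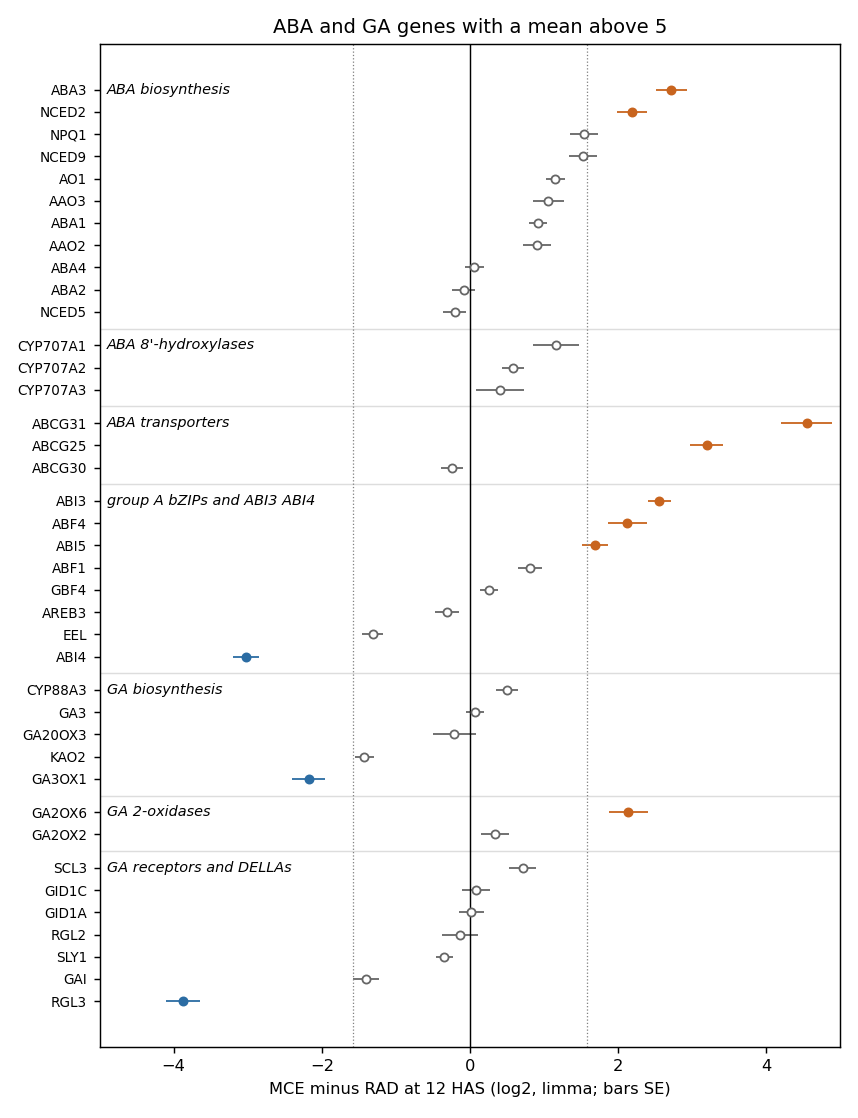
MCE minus RAD at 12 HAS (log2, limma estimate, bars SE) for genes of 7 ABA and GA lists with a mean above 5 in either compartment; filled points are called (orange, higher in the MCE; blue, higher in the RAD), open points are not, and dotted lines mark 3-fold. ABCG31 lies farthest to the MCE side and RGL3 farthest to the RAD side.

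In the GA lists, 1 gene of synthesis and 1 DELLA gene were called higher in the RAD, and 1 gene that removes the hormone was called higher in the MCE. These were 7.14%, 10% and 14.3% of their lists. Over all genes, 1.71% were called higher in the RAD and 3.37% in the MCE. GA3OX1, which makes active GA, measured 4.09, 3.93 and 3.94 in the MCE and 6.49, 6.14 and 5.87 in the RAD (at least 4.49-fold higher in the RAD), and was the 1 called gene of 14 in GA biosynthesis. KAO2, at 7.43 in the MCE against 8.85 in the RAD, and GA1, at 3.13 in the MCE against 4.41 in the RAD, were also lower in the MCE by less than 3-fold (adjusted p = 1.66e-09 and 3.61e-08). CYP88A3, another oxidase of the pathway, was higher in the MCE by less than 3-fold, at 6.64 in the MCE against 6.14 in the RAD (adjusted p = 0.0086), as was GA2, at 3.90 in the MCE against 3.52 in the RAD (adjusted p = 0.042). RGL3, a DELLA repressor, measured 4.56, 4.60 and 4.74 in the MCE and 8.37, 8.55 and 8.59 in the RAD (14.6-fold higher in the RAD, -3.87 ± 0.23 (SE), adjusted p = 3.17e-13). RGL2, the DELLA known as the main repressor of germination, measured 8.20 ± 0.34 in the MCE, against 8.34 ± 0.085 in the RAD (SD, n = 3 each), with a difference of -0.14 ± 0.24 (SE), adjusted p = 0.69, and the receptor gene GID1A measured 8.27 in the MCE against 8.25 in the RAD. GA2OX6, which inactivates GA, measured 6.08, 5.93 and 6.07 in the MCE and 3.94, 3.66 and 4.06 in the RAD (at least 4.08-fold higher in the MCE, adjusted p = 1.86e-07). Of the other 2-oxidase genes, 2 of the 7 on the list were lower in the MCE by adjusted p alone, ATGA2OX3, at 3.44 in the MCE against 4.82 in the RAD, and GA2OX4, at 3.15 in the MCE against 3.64 in the RAD. With means below 5 raised to 5, GA3OX1 and GA2OX6 no longer reached 3-fold. Of 7 GASA genes, small peptides often induced by GA, GASA1 was 4.36-fold higher in the MCE and AT5G14920 was 4.65-fold higher in the RAD. Each was 14.3% of the list, against 3.37% and 1.71% of all genes.

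Among 11 dormancy regulators, 1 was called, higher in the MCE (9.09%, against 3.37% of all genes). E12A11, known as MFT, a phosphatidylethanolamine-binding regulator of germination, measured 10.35, 9.90 and 9.44 in the MCE and 8.13, 7.61 and 7.95 in the RAD (3.99-fold higher in the MCE). DOG1, a main dormancy gene of the Cvi accession, measured 5.21, 4.898 and 4.76 in the MCE and 6.67, 6.42 and 6.39 in the RAD. It was lower in the MCE by 2.9-fold (-1.54 ± 0.20 (SE), adjusted p = 4.50e-07), just short of the 3-fold rule, and it was called when the arrays were quantile normalized again or when MCE replicate 1 or RAD replicate 3 was left out. PIL5, HUB2 and HUB1 were higher in the MCE by less than 3-fold, at 8.17 in the MCE against 6.77 in the RAD for PIL5, 7.40 in the MCE against 6.22 in the RAD for HUB2 and 5.59 in the MCE against 4.55 in the RAD for HUB1. XTH31, also known as XTR8, had values between 2.95 and 3.39 on all 6 arrays.

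Genes that loosen or cut the cell wall were divided between the compartments. Of 20 alpha-expansin genes, 3 were called higher in the RAD (15%, against 1.71% of all genes) and 0 in the MCE. Besides EXPA1 (14.2-fold) these were EXPA15, at 4.62 ± 0.19 in the MCE, against 6.85 ± 0.27 in the RAD, and EXPA10, at 4.20 ± 0.33 in the MCE, against 6.11 ± 0.10 in the RAD (SD, n = 3 each). EXPA2, an expansin known from the endosperm of germinating seeds, was below 5 in both, at 4.81 in the MCE against 4.56 in the RAD. Without MCE replicate 3, 1 alpha-expansin gene was called higher in the MCE. Of 33 XTH genes, 3 were called higher in the MCE (9.09%, against 3.37% of all genes) and 2 in the RAD (6.06%, against 1.71%). XTH11 measured 11.54, 11.99 and 12.197 in the MCE and 8.37, 7.63 and 8.06 in the RAD (14.8-fold higher in the MCE), XTH25 and XTH24 were 3.24-fold and at least 3.72-fold higher in the MCE, and XTH4 was at least 6.89-fold higher in the RAD, beside XTH15. Without RAD replicate 2, XTH25 fell short of 3-fold, at 1.56 (log2). Of 6 mannanase genes, MAN7 was called higher in the MCE (16.7%, against 3.37% of all genes) and 0 in the RAD. MAN2 measured 4.81 in the MCE against 5.22 in the RAD, with all RAD arrays above all MCE arrays, and did not pass the test (adjusted p = 0.056).

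Of 20 defence protein genes, 3 were called higher in the MCE (15%, against 3.37% of all genes) and 1 in the RAD (5%, against 1.71%). Without the fold rule 4 passed in each direction (against 20.8% and 20.9% of all genes), and the median difference was -0.21 (log2), toward the RAD. NSP2, which directs the breakdown of glucosinolates, measured 13.28, 13.44 and 13.48 in the MCE and 7.499, 6.77 and 7.17 in the RAD (76.3-fold, 6.25 ± 0.17 (SE), adjusted p = 3.95e-20). The defensin gene PDF1.4 measured 7.97, 9.10 and 9.14 in the MCE and 4.63, 4.35 and 4.34 in the RAD, and LTP2, a lipid transfer protein, was bright in both, at 13.82 in the MCE against 11.76 in the RAD. LCR68, another defensin-like gene, was 3.52-fold higher in the RAD, but fell short of 3-fold without MCE replicate 1, at -1.499 (log2).

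Of 61 WRKY transcription factor genes, 6 were called higher in the MCE (9.84%, against 3.37% of all genes) and 0 in the RAD. WRKY48 measured 7.84, 7.72 and 7.43 in the MCE and 3.60, 4.19 and 4.03 in the RAD (at least 12.6-fold). WRKY8, WRKY6, WRKY40, WRKY33 and WRKY22 were at least 5.08-fold, 6.55-fold, 5.67-fold, 5.4-fold and 3.26-fold higher in the MCE. By adjusted p alone 20 of the 61 were higher in the MCE and 3 in the RAD (against 20.8% and 20.9% of all genes). In the jasmonate list of 23 genes, the repressor gene JAZ1 (at least 5.39-fold) and the lipoxygenase gene LOX4 (4.27-fold) were called higher in the MCE and none in the RAD. JAZ1 and LOX4 were 8.7% of the list, against 3.37% of all genes.

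Of 55 auxin genes, 6 were called higher in the MCE, namely the response factors ARF16 (5.45-fold), ARF17 (4.78-fold), ARF2 (4.24-fold), ARF4 (3.44-fold) and ARF10 (3.31-fold) and the repressor gene IAA9 (3.04-fold). The 3 called higher in the RAD were ARF6, at 5.14, 5.02 and 5.31 in the MCE and 7.74, 7.79 and 7.39 in the RAD, the repressor gene IAA2 (at least 4.24-fold) and the carrier gene EIR1 (7.08-fold). The 6 and 3 called genes were 10.9% and 5.45% of the list, against 3.37% and 1.71% of all genes. Without the fold rule 13 passed as higher in the MCE and 12 as higher in the RAD (against 20.8% and 20.9%). The median difference was -0.17 (log2), toward the RAD, beside -0.075 over all genes. Of the called factors, ARF2, ARF4, ARF10, ARF16 and ARF17 are known as repressing response factors and ARF6 as an activating one. This covers called members only, with 1 activating factor among them, and a split between the groups of factors was not tested. Of 29 cytokinin genes, 1 was called higher in the MCE (3.45%, against 3.37% of all genes), CKX5, which breaks the hormone down (5.49-fold). Of 13 clock genes, PRR3 and ELF3 were called higher in the MCE (15.4%, against 3.37% of all genes). PRR3 measured 9.70 in the MCE against 6.69 in the RAD, and ELF3 measured 7.81 in the MCE against 5.74 in the RAD. By adjusted p alone 9 of the 13 were higher in the MCE and 1 in the RAD (against 20.8% and 20.9% of all genes).

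Lists of aquaporins, tubulins and ribosomal proteins had called members in the RAD and 0 in the MCE. Of 19 aquaporin genes, 3 were called (15.8%, against 1.71% of all genes), all plasma membrane channels. PIP1C measured 3.66, 3.54 and 3.75 in the MCE and 7.03, 6.95 and 7.34 in the RAD (at least 8.61-fold). PIP2A was 7.05-fold and PIP1A was 5.08-fold higher in the RAD. By adjusted p alone 11 of the 19 were higher in the RAD (against 20.9% of all genes). The 1 higher in the MCE was BETA-TIP, a channel of the storage vacuole, at 11.96 in the MCE against 11.51 in the RAD. Of 11 tubulin genes, TUB7 was 5.6-fold and TUA2 3.03-fold higher in the RAD (18.2% called, against 1.71% of all genes). TUA2 fell short of 3-fold in 3 of the 6 fits that left out 1 array. Of 36 cell cycle genes, 1 was called (2.78%, against 1.71% of all genes), the D-type cyclin gene CYCD3;3, at 4.84 ± 0.14 in the MCE, against 7.21 ± 0.074 in the RAD (SD, n = 3 each). Without the fold rule 6 of the 36 passed as higher in the MCE and 12 as higher in the RAD (against 20.8% and 20.9% of all genes). Among the 6 was MCM5, a replication factor gene, at 5.25 in the MCE against 3.77 in the RAD. Of 21 ribosomal protein genes, RPL16A (6.96-fold) and RPL10B (3.46-fold) were called higher in the RAD (9.52%, against 1.71% of all genes). By adjusted p alone 15 of the 21 were higher in the RAD (against 20.9% of all genes) and 0 in the MCE. Their median difference was -0.57 (log2), beside -0.075 over all genes.

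Lists of stored reserves had no called member. None of 8 storage protein genes, 7 oil body genes or 19 genes of beta-oxidation and the glyoxylate cycle was called (against 5.08% of all genes). In 3 of the 6 fits that left out 1 array, 1 storage protein gene was called higher in the RAD, and without RAD replicate 1, 1 gene of beta-oxidation was called higher in the MCE. The storage protein genes CRU2 and SESA1 were lower in the MCE, at 12.38 in the MCE against 13.94 in the RAD for CRU2 and 12.52 in the MCE against 13.90 in the RAD for SESA1, by less than 3-fold, while CRA1 measured 14.12 in the MCE against 14.10 in the RAD. The fat breakdown genes AIM1 and ACX2 were higher in the MCE by less than 3-fold. AIM1 measured 10.42 in the MCE against 8.92 in the RAD, and ACX2 measured 10.93 in the MCE against 9.58 in the RAD. By adjusted p alone 11 of the 19 genes of their list were higher in the MCE and 1 in the RAD. The shares over all genes were 20.8% and 20.9%. ICL, isocitrate lyase of the glyoxylate cycle, measured 13.90 ± 0.12 in the MCE, against 13.73 ± 0.047 in the RAD (SD, n = 3 each). Of 17 late embryogenesis abundant genes, EM1 and SAG21 were 5.19-fold and 3.98-fold higher in the RAD (11.8% called, against 1.71% of all genes). EM1 measured 10.52, 10.93 and 11.47 in the MCE and 13.52, 13.19 and 13.32 in the RAD. Without the fold rule 5 of the 17 passed as higher in the MCE and 4 as higher in the RAD (against 20.8% and 20.9% of all genes). ECP63, one of the 5, measured 12.52 in the MCE against 11.37 in the RAD, and the median difference was 0.28 (log2), toward the MCE. Of 13 hypoxia genes, the haemoglobin gene HB1 was 3.4-fold higher in the RAD, the 1 called (7.69%, against 1.71% of all genes). HB1 fell short of 3-fold in 3 of the 6 fits that left out 1 array. None of 24 ethylene genes, 34 photosynthesis genes or 28 cuticle genes was called (against 5.08% of all genes). By adjusted p alone, 6, 1 and 4 of them were higher in the MCE and 4, 9 and 8 in the RAD. The shares over all genes by adjusted p alone were 20.8% and 20.9%.

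**Figure D4:**
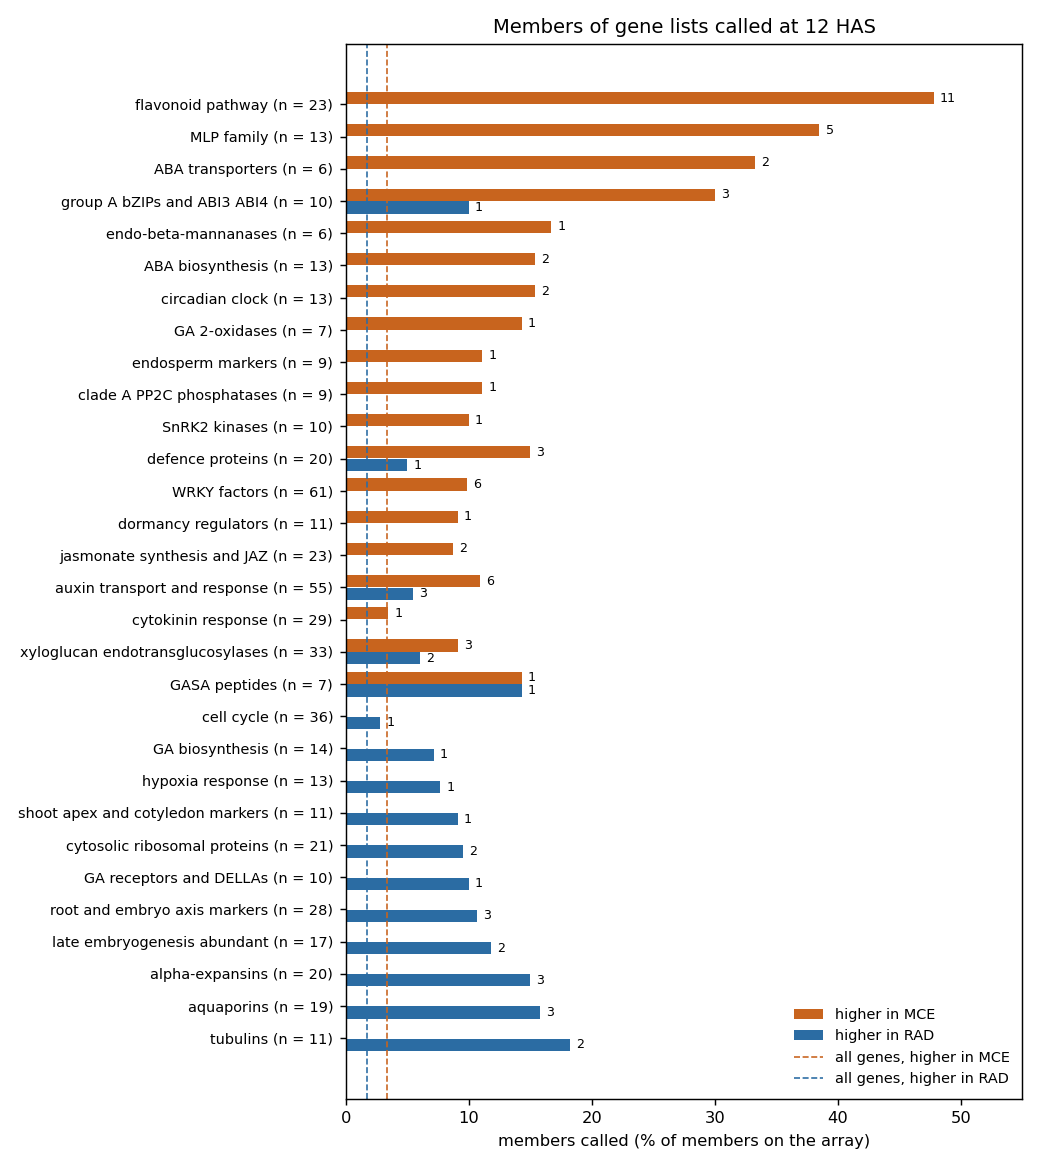
Percentage of the members of each gene list called at 12 HAS, higher in the MCE (orange bars) and higher in the RAD (blue bars), with the number of called members beside each bar, n in brackets and dashed lines at the percentage over all genes (3.37 and 1.71); the 9 lists with no called member are left out. The flavonoid pathway and the MLP family have the longest orange bars, and tubulins, aquaporins and alpha-expansins the longest blue bars among lists without an orange one.

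To see how far 12 HAS stood apart from other times, the calls were set beside those at 3, 7 and 24 HAS. The means at those times come from other arrays, but all calls came from the same fit and share its estimate of the spread. The RNA isolation method also differed between the compartments at every time. Of the 719 genes higher in the MCE at 12 HAS, 514 were also called at 7 HAS (71.5% of these, and 76.6% of the 671 called at 7 HAS) and 460 at 24 HAS (64%, and 72.7% of 633), but 282 at 3 HAS (39.2%, and 68.4% of 412). Of the 364 genes higher in the RAD, 245 were also called at 7 HAS (67.3%, and 68.2% of 359), 276 at 24 HAS (75.8%, and 64.2% of 430) and 151 at 3 HAS (41.5%, and 62.4% of 242). All 4 times shared 247 genes higher in the MCE and 119 higher in the RAD, and 118 and 41 were called at 12 HAS alone. The 719 genes had a median difference of 1.39, 2.003, 2.11 and 1.92 at 3, 7, 12 and 24 HAS, and 705, 719 and 719 of them had the same sign at 3, 7 and 24 HAS as at 12 HAS. Of the 364 genes, 349, 364 and 363 did. At 3 HAS, 1 of the 719 genes was called in the opposite direction, against 0 of the 364. The same arrays at 12 HAS chose these genes, so the value at 12 HAS is a description.

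The difference between the compartments was also tested directly against that at each other time. Against 3 HAS, it had shifted by at least 3-fold for 224 genes (1.05% of those tested), 114 toward the MCE (0.535%) and 110 toward the RAD (0.516%). Against 7 HAS this was so for 22 genes (0.103%), 13 toward the MCE (0.0610%) and 9 toward the RAD (0.0422%). Against 24 HAS it was so for 47 genes (0.221%), 17 toward the MCE (0.0798%) and 30 toward the RAD (0.141%). Without MCE replicate 1 the counts against 7 HAS were 28 and 19, and without RAD replicate 1 they were 16 and 15. Against 24 HAS, 18 genes in place of 30 had shifted toward the RAD when only the 12 arrays of the 2 times were fitted.

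Among the largest shifts against 3 HAS were flavonoid genes toward the MCE and wall genes such as XYL1 toward the RAD. Other wall genes, MAN7, XTH25 and XTH11, shifted toward the MCE, by 2.90, 2.18 and 1.69 (log2). Over the 4 times (3, 7, 12 and 24 HAS), FLS1 had means of 4.17, 8.18, 9.77 and 10.63 in the MCE, and of 3.31, 3.88, 4.03 and 4.04 in the RAD, against 3.23 in dry seeds. The difference for FLS1 was 4.88 (log2) larger at 12 HAS than at 3 HAS (adjusted p = 8.00e-09), and that for CHIL was 4.54 larger. XYL1 had means of 3.04, 3.07, 4.35 and 4.41 in the MCE and 4.40, 6.92, 8.61 and 8.34 in the RAD, and AT5G01210 had means of 3.56, 3.71, 4.83 and 4.68 in the MCE and 4.37, 7.24, 9.18 and 8.67 in the RAD. Both genes were below 5 in either compartment at 3 HAS. AT1G14940, in contrast, was already 13.05 in the MCE and 4.58 in the RAD at 3 HAS, and 12.02 in dry seeds, whose RNA was isolated as that of the MCE was.

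Against 7 HAS, SIAR1, an amino acid transporter, had the largest shift toward the MCE, with means of 3.55, 4.87, 7.83 and 8.65 in the MCE and 3.24, 3.26, 3.13 and 3.13 in the RAD over the 4 times (shift 3.09, adjusted p = 2.43e-06). ATS3, a seed gene, also shifted toward the MCE, although its levels at 12 HAS were 6.93 in the MCE against 6.75 in the RAD and did not pass the test (adjusted p = 0.67). EXPA1 shifted toward the RAD, with means of 2.98, 3.36, 4.20 and 3.90 in the MCE and 2.88, 3.66, 8.03 and 6.12 in the RAD. This shift (-3.53, adjusted p = 0.016) did not pass in 3 of the 6 fits that left out 1 array, where adjusted p was between 0.0541 and 0.0627, nor in the fit of only the 12 arrays (adjusted p = 0.0538). AT1G17200, which encodes the CASP-like protein CASPL2A1, shifted toward the RAD by -2.18, with a RAD mean of 3.84 at 7 HAS and 5.95 at 12 HAS.

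GA3OX1 was the 1 named gene whose difference at 12 HAS differed from that at all other times. Its means over the 4 times were 3.80, 7.94, 6.17 and 4.40 in the RAD, with a maximum at 7 HAS, while its MCE means stayed between 3.86 and 4.34. Against 24 HAS, the largest shifts were in genes that changed after 12 HAS. TUA4 and AT2G19460 had RAD means of 5.47 and 4.23 at 12 HAS and of 7.84 and 6.79 at 24 HAS. AT1G22810, an AP2-type factor, and PUB29, a ubiquitin ligase gene, had MCE means of 3.88 and 5.07 at 12 HAS and of 6.87 and 7.51 at 24 HAS. The shift of PUB29 did not pass in 4 of the 6 fits that left out 1 array, and neither did those of AT1G22810 and PUB29 when only the 12 arrays were fitted.

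**Figure D5:**
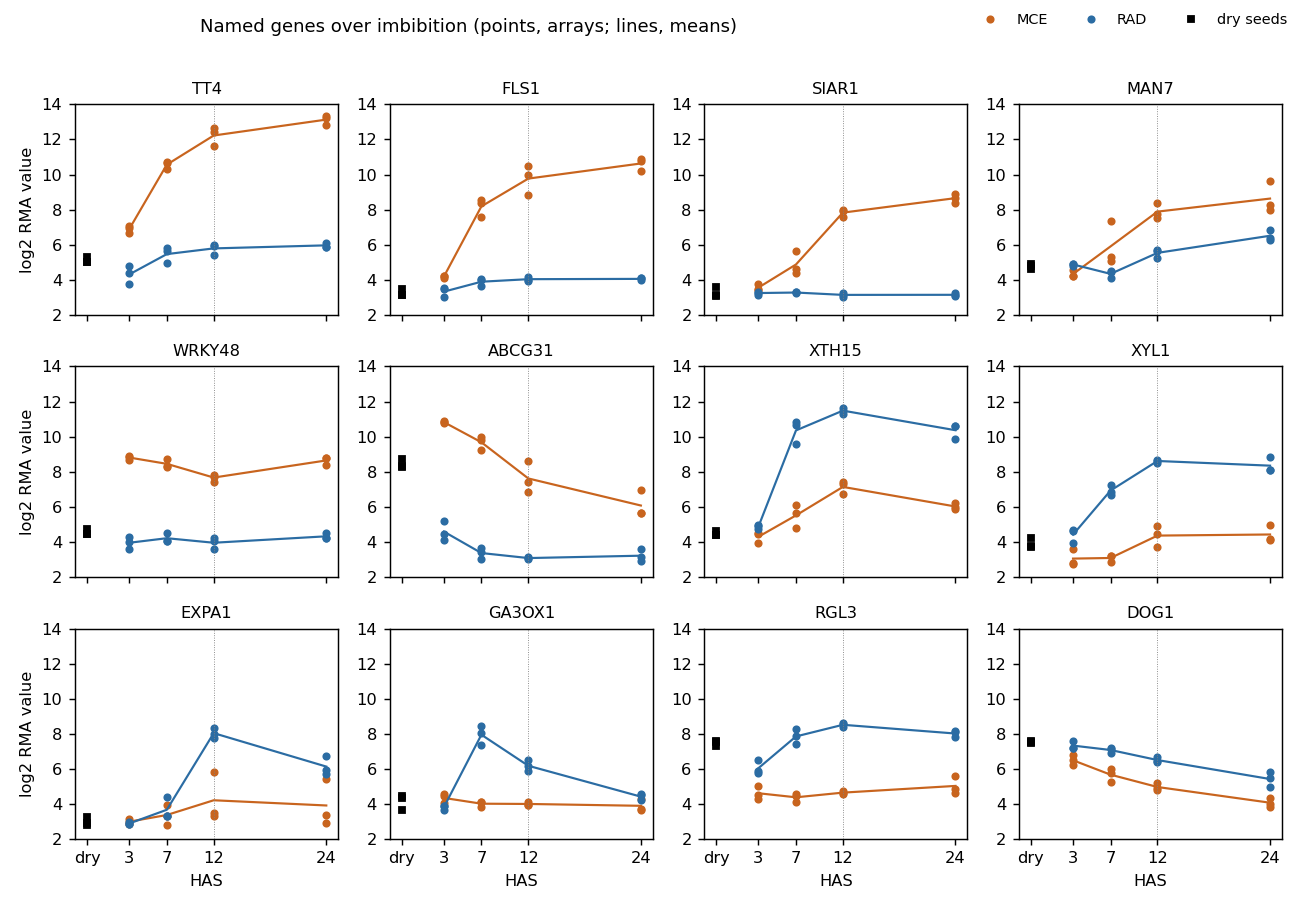
Log2 RMA values of 12 named genes in MCE (orange) and RAD (blue) over the 4 times (HAS), with dry seeds at the left (black); points are arrays, lines join the means of 3 arrays, and the dotted line marks 12 HAS. TT4, FLS1 and SIAR1 part between the compartments as MCE values rise, XTH15 and XYL1 as RAD values rise, ABCG31 falls in the MCE from 3 HAS on, and GA3OX1 peaks in the RAD at 7 HAS.

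Lastly, genes with signal in 1 compartment alone were counted. A mean above 6 in the MCE and below 5 in the RAD was found for 335 genes (1.57%), and the reverse for 149 genes (0.699%). With the higher limit set at 7 in place of 6 these numbers were 119 and 41. Those with signal in the MCE alone included MLP31, CYP714A1, FLS1, ABCG31 and WRKY48, and the genes with signal in the RAD alone included PDF1, RGL3, BBM, KNAT1 and PIP1C.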

How the data were processed

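The log2 values were taken as deposited. The authors made them by RMA (background correction, quantile normalization and median polish) from Affymetrix ATH1 chips, normalizing these together with further chips, with the custom chip definition file Ath1121501_At_TAIRG, version 18.0.0, which gives 1 value per gene. No depth is known for arrays, and their number limits the precision. Gene symbols, and the start positions used to find neighbouring genes, came from a table of the TAIR10.1 assembly, in which 21205 of 21313 genes were found.

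Groups were taken from the sample labels. limma (version 3.58.1 in R 4.3.3) was fitted to the 9 groups (27 arrays), and p-values were adjusted over all genes by Benjamini-Hochberg (18 residual and 7.246 prior degrees of freedom). Means below 4 were raised to 4 for fold changes, which are given as higher over lower; log2 differences with an SE are limma's, without this floor. The shift of the difference between times was tested as an interaction in the same fit. The methods name a t-test, run as an alternative. The 39 gene lists and the genes compared were chosen with earlier results of these data known, and no set test was run. Genes named by rule were called, with no overlap of arrays, and were the 12 largest in each direction or led their list. The genes the study names and the 2 largest shifts per direction and time were added to these. The others named are further list members, called or not, chosen after their values were seen. Promoter motifs were planned but not run, since no promoter sequences were at hand. Scripts were tested on simulated data. Figures were drawn with Python 3.11.15 and matplotlib 3.10.9.

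Replicate numbers are the same in each group, but deviations from the group means correlated between same-numbered arrays at -0.18, -0.018 and -0.079, so that the numbers were not taken to pair the arrays. Alternatives changed the test, the arrays fitted, the floor, the fold, the filter on dim genes, the scaling and the array left out.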

Additional observations from a re-analysis of the deposited data

Results flagged for a closer look

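Of the 90 genes named by rule, 36 had an MCE minus RAD difference at 12 HAS that differed from that at another time. This was judged by limma's interaction test (adjusted p under 0.05 and a shift of at least 3-fold), which gave 42 results. The genes with the largest shifts were put on the list by this same test, so their result was fixed in advance. Most others were chosen for their difference at 12 HAS, which can favour a shift. The count of 36 is therefore a description. Over all genes, 1.05% had shifted against 3 HAS, 0.103% against 7 HAS and 0.221% against 24 HAS. Groups of 3 arrays were not searched for single outlying arrays. Shifts are on the log2 scale, as the difference at 12 HAS minus that at the other time, so a positive shift is toward the MCE.

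Against 3 HAS, 30 genes had shifted. Toward the MCE, the flavonoid genes FLS1, CHIL, TT4 and TT5 shifted by 4.88, 4.54, 3.85 and 3.51, and the transporter gene SIAR1 by 4.38. Of wall genes, MAN7, XTH25 and XTH11 shifted toward the MCE by 2.90, 2.18 and 1.69, and GASA1, CKX5 and AT1G14950 did so by 1.85, 1.695 and 1.64. Toward the RAD, EXPA1, XTH15, XYL1, XTH4 and EXPA15 had shifts of -3.93, -3.77, -2.89, -2.46 and -1.89. The shifts of AT5G01210, PAP10, GA3OX1, AT1G17200 and RGL3 were -3.54, -2.99, -2.71, -2.66 and -2.44. Those of PDF1, TUA2, SAG21, AT2G27830 and AT2G25980 were -2.27, -1.93, -1.92, -1.83 and -1.74. That of HB1 was -1.68. Among genes that stayed higher in the MCE, WRKY33, WRKY6 and ABCG31 shifted by -1.94, -1.77 and -1.71, their difference having been larger at 3 HAS.

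Against 7 HAS, SIAR1, ATS3 and GA3OX1 shifted toward the MCE by 3.09, 2.47 and 1.76, and EXPA1 and AT1G17200 shifted toward the RAD, with values of -3.53 and -2.18. Against 24 HAS, TUA4 and AT2G19460 shifted toward the MCE by 2.31 and 2.298. AT1G22810, LOX4, PUB29, HB1 and GA3OX1 shifted toward the RAD, with values of -2.90, -2.39, -2.12, -1.79 and -1.66.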

How the results depend on the processing

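The counts of 719 and 364 calls stayed within 1.5 times under every alternative test, set of arrays, floor and scaling that was run. They moved with the fold rule, to 1731 and 1114 genes at 2-fold and to 250 and 102 at 5-fold. Applying quantile normalization again gave 626 and 454, so that 58.0% of the calls were higher in the MCE in place of 66.4%. Leaving out 1 array gave 684 to 748 genes higher in the MCE and 354 to 382 higher in the RAD, and 581 of the 719 (80.8%) and 280 of the 364 (76.9%) were called in all 6 such fits. The methods' t-test gave 719 and 364 at its unadjusted threshold and 710 and 354 after Benjamini-Hochberg adjustment. A replicate block gave 719 and 364 with all 27 arrays and with only 6 arrays. Without the fold rule the block gave 4463 and 4503 genes, or 4173 and 3835 with only 6 arrays, and the shifts against 3 HAS were then 115 and 110 genes; the block changed the call of 0 of the named genes. Genes with signal in 1 compartment were 119 and 41 with the higher limit at 7. Shifts against 7 HAS ranged from 9 to 28 genes toward the MCE and from 6 to 19 toward the RAD when 1 array was left out, with the highest counts without MCE replicate 1. Shifts toward the RAD against 24 HAS were 18 in place of 30 in the fit of the 12 arrays of the 2 times. The cause was not tested. With means raised to 5, ABA biosynthesis had 1 call in place of 2, and the only called members of the SnRK2, GA biosynthesis, GA 2-oxidase and shoot apex lists and those of the GASA and jasmonate lists fell short of 3-fold. Signal over background limits genes near 5 or lower.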

Other observations

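Some groups outside the lists stood out on reading the called genes; they were chosen after their values were seen, so their counts are descriptions. Over all genes, 3.37% were called higher in the MCE and 1.71% in the RAD. Of 42 genes of sugar transport and cleavage, 7 were called higher in the MCE and 2 in the RAD. MSS1, a hexose carrier, measured 9.76, 9.62 and 9.32 in the MCE and 3.83, 3.67 and 3.69 in the RAD, and ATBFRUCT1, a cell wall invertase that splits sucrose, measured 9.79, 9.30 and 9.24 in the MCE and 4.12, 3.34 and 3.52 in the RAD. TRE1, trehalase, was 13.8-fold higher in the MCE. SUC2, the sucrose carrier that loads the phloem, had the reverse pattern, at 5.08, 5.01 and 4.93 in the MCE and 8.46, 8.25 and 8.39 in the RAD (10.3-fold higher in the RAD), and SWEET1 was 4.47-fold higher in the RAD. Of 10 TGA factors of the bZIP family, TGA9 and TGA10 were 17.7-fold and 18.1-fold higher in the MCE, TGA7 was 3.59-fold higher, and 0 were called in the RAD. Of 11 brassinosteroid genes, the synthesis genes DWF4 and CPD were called higher in the RAD, at 4.75 in the MCE against 7.58 in the RAD for DWF4 and 3.66 in the MCE against 6.97 in the RAD for CPD. Of 21 histone genes, 4 genes of the H2A family were called higher in the RAD, HTA6, HTA8 (9.09-fold), HTA11 (6.33-fold) and HTA13 (4.07-fold), and HTB2 was 4.64-fold higher in the MCE.

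Close relatives sometimes lay on opposite sides. The trypsin inhibitor genes TI1 and TI2 measured 9.92, 10.64 and 10.95 in the MCE and 6.44, 5.28 and 5.02 in the RAD for TI1, and 6.49, 6.74 and 7.13 in the MCE and 10.47, 10.23 and 10.27 in the RAD for TI2. In 5 places, 3 or more genes next to each other in the genome, among those on the array, were all called higher in the MCE. The longest run was of 4 genes, AT1G14930 to AT1G14960, and another held the chitinase family genes AT2G43570, AT2G43580 and AT2G43590. No such run was found among the 364 genes called higher in the RAD, which were fewer than the 719 called higher in the MCE. Fewer calls make such runs rarer, and the numbers of runs were not tested.

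Several of the brightest MCE genes had RAD values that were lower at each later time, while their MCE values changed little. Over 3, 7, 12 and 24 HAS, NSP2 had means of 13.82, 13.57, 13.40 and 13.48 in the MCE and of 8.46, 7.76, 7.15 and 5.77 in the RAD. AT1G14950 had means of 13.83, 13.71, 13.52 and 13.37 in the MCE and of 8.79, 7.69, 6.84 and 5.45 in the RAD, and AT3G21380 had means of 11.40, 10.98, 11.21 and 11.07 in the MCE and of 6.28, 5.07, 4.76 and 4.09 in the RAD.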
